A study of Rattus norvegicus with 4 samples.

Results

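The genes of cholesterol and fatty acid synthesis were examined in NR8383 macrophages exposed to carbon nanotubes. The set held 33 genes out of 16581 rat genes with a named probe on the array. They were chosen by name from the known pathway, with earlier results of these data known. They comprised 18 enzymes of the sterol branch (7 of the mevalonate steps and 11 of the steps from squalene to cholesterol), 6 genes of control and sterol transport, and 9 enzymes of the fatty acid branch. NR8383 is an alveolar macrophage line started from the lavage fluid of a normal rat lung, so all values come from a single cell line. Messenger RNA was measured on 1-colour (Cy3) Agilent arrays in 4 cultures, labelled as biological replicates 1 to 4. Every culture had been through 20 passages, was kept for 48 h in a flask of 25 cm² with 15% serum, and then received NM403, which is a preparation of multi-walled carbon nanotubes, for 4 h at a surface dose of 0.8 cm²/cm². Cultures without NM403 belong to the design but were not analysed here; no response to the nanotubes could be computed, and no test between groups was made. Arrays of whole cultures cannot tell fewer cells of a kind from less RNA per cell, and scaling each array hides any change in total messenger RNA.

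Cells build cholesterol from acetyl-CoA through mevalonate, farnesyl diphosphate, squalene and lanosterol, and the farnesyl step also feeds protein prenylation. When membrane sterol is low, the escort protein SCAP carries the precursors of the SREBP transcription factors from the endoplasmic reticulum to the Golgi, where they are cut and released, and INSIG proteins hold SCAP back when sterol is plentiful. SREBP-2 acts mainly on the sterol branch and SREBP-1 mainly on the fatty acid branch, often next to the factor NF-Y, which binds CCAAT boxes. Fatty acid synthesis runs from citrate through ATP citrate lyase, acetyl-CoA carboxylase and fatty acid synthase, after which desaturases and elongases shape the chains. In macrophages the sterol pathway is also known for its ties to inflammatory activation.

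The 4 arrays lay on 1 slide and went through 1 scan, and 45.9% to 50.8% of the spots that were not controls were well above background, as called by the scanner software. Replicate 4 carried a software mark for evaluation, with 2 quality measures out of range. The arrays did not scatter evenly: across 7937 eligible genes, those whose level probe was detected on all 4 arrays, replicates 1 and 3 correlated at a Pearson r of 0.996 and replicates 2 and 4 at 0.992, against 0.967 to 0.970 for the other pairs. No p is attached to these, since they run across genes. Of 12 macrophage markers 10 were detected on all arrays, and the defining markers Marco and Adgre1 on none. Of 20 markers of alveolar epithelium, liver, fat and fibroblasts, 2 of the 19 measured were detected on all arrays: Cidec, a lipid droplet gene, at -1.26 ± 0.19 and Dcn at -1.88 ± 0.22 (SD, n = 4). Sftpc, of alveolar epithelium, was detected on 1 array, and Alb of liver and Adipoq and Lep of fat on none.

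Enzymes of the sterol branch were detected throughout, while most of the 9 listed fatty acid genes were not. Of 18 further fatty acid genes, given below, 11 were detected on all arrays. All 18 sterol branch genes were detected on all 4 arrays, as were all 6 control and transport genes, against 47.9% of the 16581 named genes. Of the 9 fatty acid genes, 1 was detected on all arrays (Acly), 2 on 3 arrays (Acaca and Elovl5) and 6 on none (Fasn, Scd, Scd2, Elovl6, Fads1 and Fads2), where 40.4% of all named genes were detected on none. By probe, 25 of 25 in the sterol branch, 8 of 9 in the control group and 1 of 13 in the fatty acid branch were detected on all arrays, against 46.4% of all named probes. A gene counted as detected on an array where any of its probes was well above background. Under the laxer software call, a signal positive and significant against background, 4 fatty acid genes passed on all arrays (Acly, Acaca, Elovl5 and Elovl6), and 58.7% of all named genes did. Without replicate 4, 3 of the 9 passed the stricter call on every remaining array, since Acaca and Elovl5 were missed on that array alone. These calls concern the probes, and a transcript can be present below what its probe registers. Fasn, Scd, Fads1 and Fads2 each had 1 named probe. Members may have further probes among the 24489 of 45598 that stayed unnamed.

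**Figure D1:**
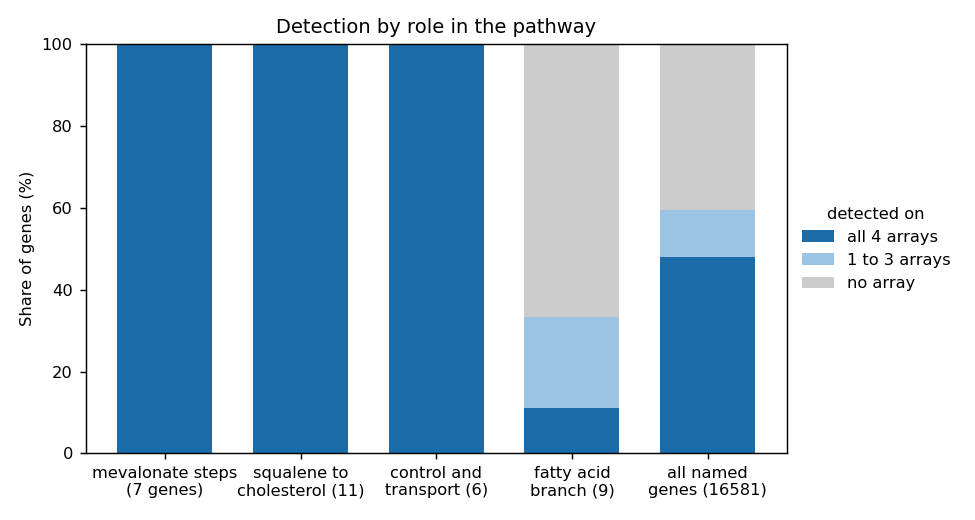
Share of genes (%) detected on all 4 arrays, on 1 to 3 arrays or on no array, for the 4 role groups and for all 16581 named genes. The 3 sterol and control bars are filled completely by genes detected on all arrays, and in the fatty acid bar 1 of 9 genes is.

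Levels below are log2 processed intensities minus the same array's 75th percentile over the probes detected throughout, given for replicates 1, 2, 3 and 4 in that order or as mean ± SD over the 4 cultures (n = 4). Each gene takes the value of its brightest probe, and levels are compared for the same probe across cultures, not between genes. With 4 arrays, precision is limited by their number.

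**Figure D2:**
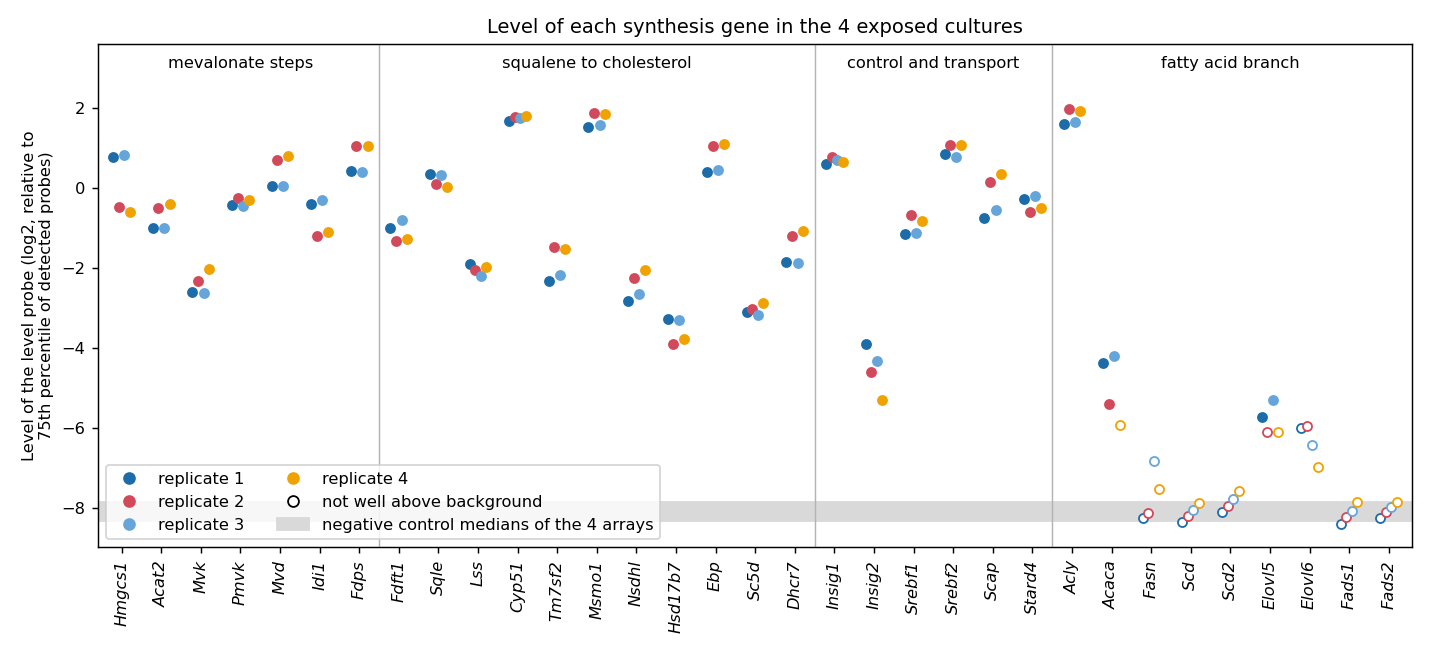
Level (log2, relative to the 75th percentile of detected probes) of the brightest probe of each of the 33 genes, with a point for each of the 4 cultures; open points were not well above background and the grey band spans the negative control medians of the 4 arrays (-8.34 to -7.85). Sterol and control genes lie clear of the band on every array, and Fasn, Scd, Scd2, Fads1 and Fads2 lie in it or close to it.

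Among the mevalonate enzymes the cultures differed most, under the scaling used here, in Hmgcs1, which encodes the cytosolic HMG-CoA synthase that opens the pathway's committed part. Its levels were 0.78, -0.47, 0.81 and -0.60, which spans 2.66-fold from lowest to highest, with replicates 1 and 3 high, replicates 2 and 4 low and a gap of 1.24 between them. Its SD of 0.77 exceeded that of 95.2% of eligible genes under this scaling. With scaling on all probes it was 0.56, below the 0.62 of Mvd and the 0.58 of Fdps. Hmgcs1 had 1 named probe, printed as 1 spot per array, so neither another probe nor a repeated spot backs these values. Idi1, the isopentenyl diphosphate isomerase, followed the same order at -0.41, -1.20, -0.31 and -1.11. The gene for farnesyl diphosphate synthase, Fdps, read 0.41, 1.04, 0.40 and 1.06, high in replicates 2 and 4 where Hmgcs1 was low. Mvd, the decarboxylase that makes isopentenyl diphosphate, read 0.05, 0.71, 0.05 and 0.79, and Acat2, the thiolase that joins 2 acetyl-CoA units, read -1.01, -0.51, -0.99 and -0.40; in each, the values of replicates 2 and 4 lay above those of replicates 1 and 3. Mvk, mevalonate kinase, read -2.60, -2.33, -2.62 and -2.02, highest in replicate 4, and its SD fell from 0.28 to 0.18 without that array. The next kinase, Pmvk, read -0.42, -0.25, -0.46 and -0.30, with the smallest SD of the mevalonate genes under this scaling, 0.0985; with scaling on all probes it was 0.31 and that of Idi1, at 0.25, was smaller. Hmgcs1 and Idi1 thus ran opposite to Acat2, Mvk, Mvd and Fdps over the same 4 cultures, and did so under each of the 5 scalings tried.

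In the steps from squalene to cholesterol, no gene passed a 2-fold range. Sqle, squalene epoxidase, a rate-limiting enzyme of the later pathway, read 0.34, 0.10, 0.32 and 0.01. Fdft1, squalene synthase, read -0.99, -1.34, -0.80 and -1.28, so that both genes at the entry to the branch were higher in replicates 1 and 3, an order that did not hold with scaling on all probes, where Sqle was highest in replicates 2 and 4 and Fdft1 in replicates 3 and 4. Lss, lanosterol synthase, read -1.90, -2.06, -2.19 and -1.98 with no such division, and without replicate 1 its SD was 0.039 in place of 0.12. Cyp51, the lanosterol demethylase, read 1.68, 1.77, 1.74 and 1.79, with an SD of 0.0502, at percentile 3.55 of all eligible genes; without replicate 1 it was 0.0254. That small SD belongs to the scaling used here, and was 0.25 with scaling on all probes and 0.17 on the median. Several later enzymes were higher in replicates 2 and 4. Tm7sf2, a sterol reductase, read -2.32, -1.48, -2.17 and -1.53. Dhcr7, the reductase of the last step, read -1.86, -1.19, -1.89 and -1.08. The isomerase gene Ebp read 0.41, 1.04, 0.45 and 1.09. For these 3 genes the gap between the lower and the upper 2 cultures was 0.64, 0.67 and 0.59. Nsdhl, a sterol dehydrogenase, read -2.82, -2.25, -2.67 and -2.06, and Msmo1, the methylsterol oxidase, 1.52, 1.88, 1.56 and 1.84. Sc5d, the sterol desaturase, differed little, at -3.10, -3.02, -3.19 and -2.87. Hsd17b7, a ketosteroid reductase, went the other way at -3.29, -3.90, -3.31 and -3.79, on this probe but not on its other one.

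Control genes held 2 of the 3 members with a range above 2-fold. Scap, the SREBP escort, read -0.75, 0.15, -0.55 and 0.34, a 2.13-fold range with replicates 2 and 4 high. Insig2, which anchors SCAP in the endoplasmic reticulum, read -3.90, -4.60, -4.33 and -5.31, a 2.66-fold range in which replicate 4 was lowest and replicates 2 and 3 were neighbours. On replicate 4 the Insig2 probe had a processed intensity of 70.0, above 97.4% of the negative control spots of that array. It was called well above background there, yet this lowest value lay within the upper tail of those spots. With normexp background correction the range of Insig2 was 1.89-fold, and under the other alternative scalings 2.00-fold to 2.30-fold. Leaving out an array changed the ranges of both genes. That of Insig2 was 1.97-fold without replicate 1 and 1.63-fold without replicate 4, and that of Scap 1.85-fold and 1.87-fold. Insig1, the paralogue that SREBPs induce, read 0.59, 0.76, 0.71 and 0.64 with an SD of 0.0775, and with scaling on all probes or on the median its SD was 0.25 and 0.17 and replicates 2 and 4 were highest. Srebf2, the gene of the factor that drives the sterol branch, read 0.86, 1.08, 0.78 and 1.08, and Srebf1, that of the fatty acid branch, -1.15, -0.67, -1.14 and -0.83. Both were higher in replicates 2 and 4, though Srebf1 was not on its other probe. Stard4, a cytosolic carrier of sterol, read -0.27, -0.61, -0.21 and -0.50, with replicates 1 and 3 the higher under this scaling but not with scaling on all probes. Over the 25 eligible members, 3 (12%) exceeded a 2-fold range, against 13.6% of all eligible genes, near the background under this scaling. With the percentile over all probes 9 did, against 18.5% of eligible genes, and with median scaling or quantile normalization 5 did, against 13.0% and 13.4%. The median range was 1.51-fold over these members and 1.40-fold over all eligible genes.

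In the fatty acid branch the gene that supplies the precursor was detected on every array. The other enzymes of this list were near background or not above it. Among 18 further fatty acid genes, given below, 11 were detected on all arrays, against 47.9% of all named genes. Intensities here are as the scanner software processed them, before scaling between arrays. Acly, ATP citrate lyase, which supplies cytosolic acetyl-CoA to both branches, had processed intensities of 8215, 9897, 7052 and 10303, or levels of 1.60, 1.97, 1.64 and 1.92. The brighter probe of Acaca, acetyl-CoA carboxylase, had 131, 59.0, 123 and 45.4, and was well above background on replicates 1, 2 and 3. Replicates 1 and 3 were its bright arrays, and replicate 4, the dimmest, missed the call. Its other probe, called on the same 3 arrays, had 51.6, 47.5, 60.5 and 52.2. Negative control spots, 308 per array, had median processed intensities of 8.36 to 11.99 and 97.5th percentiles of 25.7 to 79.0, so the second Acaca probe lay within their upper tail on 2 arrays and the first on 1.

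Fatty acid synthase and the desaturases passed the well-above-background call on 0 of 4 arrays. The Fasn probe had processed intensities of 8.88, 8.97, 19.7 and 14.9, with replicates 3 and 4 the highest. On those 2 arrays it passed the laxer call, above 95.5% and 93.8% of the negative control spots. The median pixel of its spot read 61, 48.5, 64 and 66 against a local background of 33, 33, 37 and 37. Scd, the stearoyl-CoA desaturase that makes oleate, had 8.31, 8.49, 8.45 and 11.8, close to the negative control median on each array. After background subtraction its signals were -7.79, -1.48, 1.31 and -4.35, that is, not above 0 on 3 arrays. The 2 probes of its paralogue Scd2 had 9.77, 10.1, 10.2 and 14.4 and 9.14, 9.31, 8.90 and 11.95. Fads1 and Fads2, the desaturases of polyunsaturated chains, had 8.0, 8.30, 8.31 and 11.9 and 8.89, 9.04, 8.94 and 11.9. For these 4 genes replicate 4 was nominally highest, as were the negative controls of that array, and the software writes a positive processed value even where the subtracted signal is negative, so their order over cultures carries no information.

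The elongases lay close to the detection limit. Elovl5, which lengthens polyunsaturated chains, had 50.6, 36.2, 57.0 and 40.5 on the brighter of its probes and 31.1, 49.8, 50.2 and 39.5 on the other. The brighter probe was called on replicates 1 and 3 and the other on replicates 2 and 3, and on replicate 3 each of them exceeded 96.8% of the negative control spots. Elovl6, which lengthens palmitate, had 42.0, 40.3, 26.0 and 21.8 on its brighter probe, positive and significant but not well above background on all 4 arrays, and 22.0, 7.47, 7.99 and 12.8 on the other.

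**Figure D3:**
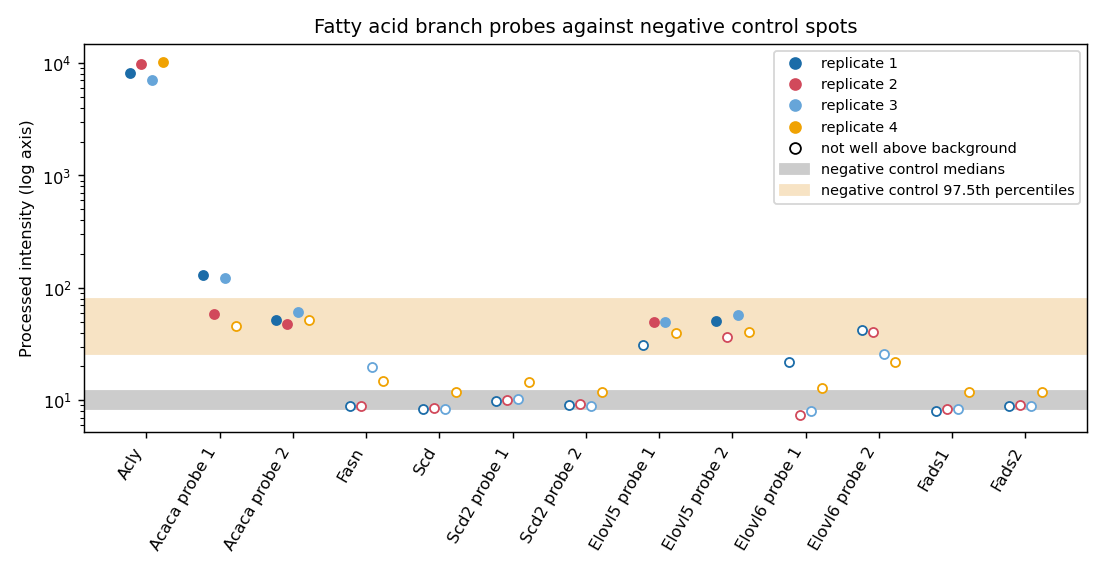
Processed intensity (log axis) of all 13 probes of the 9 fatty acid genes, with a point for each of the 4 cultures; open points were not well above background, the grey band spans the negative control medians and the tan band their 97.5th percentiles over the 4 arrays. Acly lies between 7052 and 10303, and no other probe exceeds 131.

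The detected members split over the cultures in the way that most genes on these arrays did. The 2 highest arrays were replicates 2 and 4 for 16 of the 25 eligible members (64.0%) and replicates 1 and 3 for 7 (28.0%), against 47.2% and 34.5% of all eligible genes. The other 4 pairs of arrays held 2 members. Lss was highest in replicates 1 and 4, as were 4.03% of eligible genes, and Insig1 in replicates 2 and 3, as were 3.12%. No member was highest in replicates 1 and 2 or in 3 and 4, against 5.91% and 5.17% of eligible genes. The 7 higher in replicates 1 and 3 were Hmgcs1, Idi1, Fdft1, Sqle, Hsd17b7, Insig2 and Stard4. Members differed by more than 2-fold in 3 cases between replicates 1 and 4, where 9.85% of eligible genes did. They did so in 1 case each between replicates 1 and 2, 2 and 3, and 3 and 4, where 8.78%, 9.24% and 9.36% of eligible genes did, and in 0 between replicates 1 and 3 or 2 and 4, where 0.655% and 1.30% of eligible genes differed by that much. The pairing of arrays is not a group of the study, and no test was made on it.

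**Figure D4:**
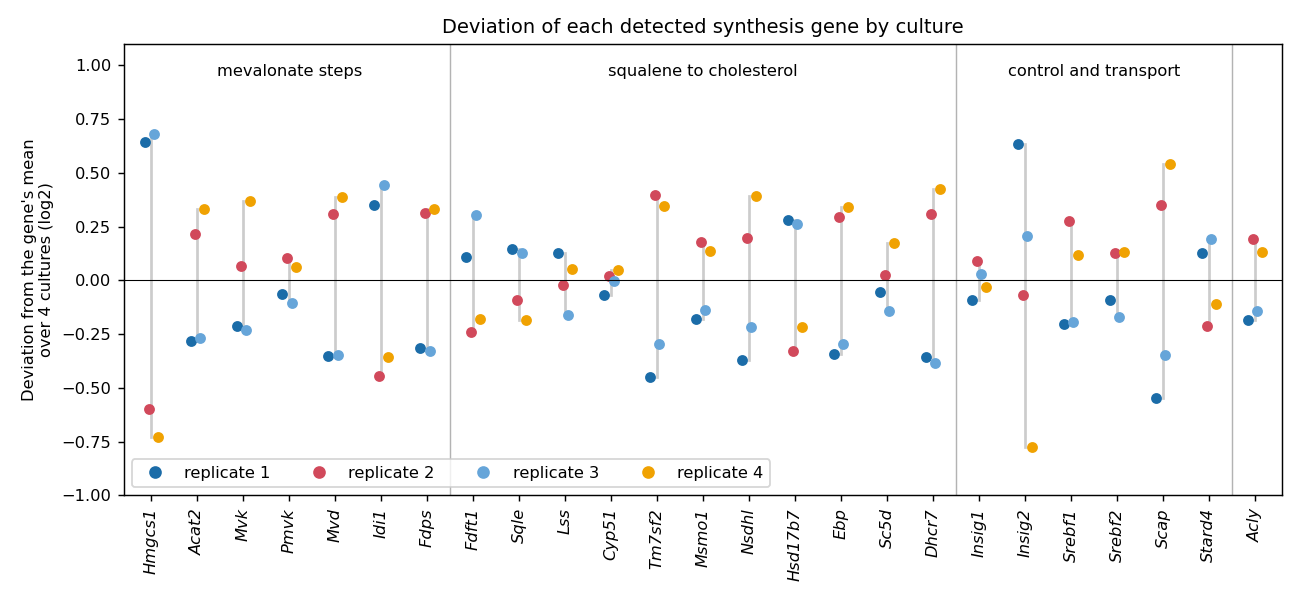
Deviation of each of the 25 eligible genes from its own mean over the 4 cultures (log2), with a point for each culture and a grey line over the range; Acly stands alone at the right. Hmgcs1 and Idi1 have replicate 1 above and replicate 4 below 0, while Fdps, Mvd, Ebp, Dhcr7 and Scap have the reverse.

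These orders rest in part on how arrays were scaled. Against the scaling used here, the spread between arrays of the median deviation over all eligible genes grew from 0.0956 to 0.474 when the percentile was taken over all non-control probes, with replicates 2 and 4 shifted up. It was 0.30 with median scaling and 0.21 after quantile normalization, again with replicates 2 and 4 shifted up, and 0.0815 with normexp background correction. Under these 4 other scalings, 14 of the 16 members kept replicates 2 and 4 as their highest. Of the 7 highest in replicates 1 and 3, 3 kept them, namely Hmgcs1, Idi1 and Hsd17b7. How many of all eligible genes kept their pair was not computed, so these counts have no background and depend on the scalings chosen. Sqle, Fdft1, Stard4 and Insig2 did not keep theirs, nor did Pmvk and Cyp51. Hmgcs1 and Scap kept a range above 2-fold under all of them.

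Ratios between members on the same array are free of any factor common to that array; those given here were chosen after the values were seen. The log2 ratio of Hmgcs1 to Fdps was 0.37, -1.51, 0.41 and -1.65, a 4.20-fold range, and 3.98-fold after quantile normalization. That of Idi1 to Fdps was -0.82, -2.24, -0.71 and -2.17, a 2.88-fold range. Sqle and Ebp, each printed as 10 spots per array, gave -0.07, -0.94, -0.13 and -1.08, a 2.02-fold range. Relative to a neighbour in the same pathway, Hmgcs1, Idi1 and Sqle were thus lower in replicates 2 and 4 than in replicates 1 and 3. In contrast the ratio of Msmo1 to Acly, a sterol and a fatty acid gene, was -0.07, -0.10, -0.08 and -0.08, with a 1.01-fold range: the 2 probes changed together. A ratio shows unequal or equal change of its 2 probes and not which of them changed.

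For 7 members the level probe was printed as 10 spots on each array, which gives the measuring error within an array. The median SD of spots within an array was 0.0394 for Ebp, against 0.37 between arrays, 9.31 times as large. It was 0.0540 for Fdps (6.88 times), 0.0603 for Acat2 (5.28 times), 0.0481 for Msmo1 (3.82 times), 0.0514 for Sqle (3.21 times) and 0.0596 for Acly (3.19 times). Under this scaling the SD between array means exceeded that of single spots for these 6 genes. For Cyp51 they were about equal, with 0.0494 within and 0.0502 between arrays. The mean of repeated spots varies less than a single spot, so equal SDs do not show that the arrays agreed within the spot error. With scaling on all probes or on the median, the SD between arrays was 0.0694 and 0.0581 for Sqle. That was close to the SD of its single spots. For Cyp51 it was 0.25 and 0.17. The spots of an array share its RNA and labelling, so this error does not cover the preparation.

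**Figure D5:**
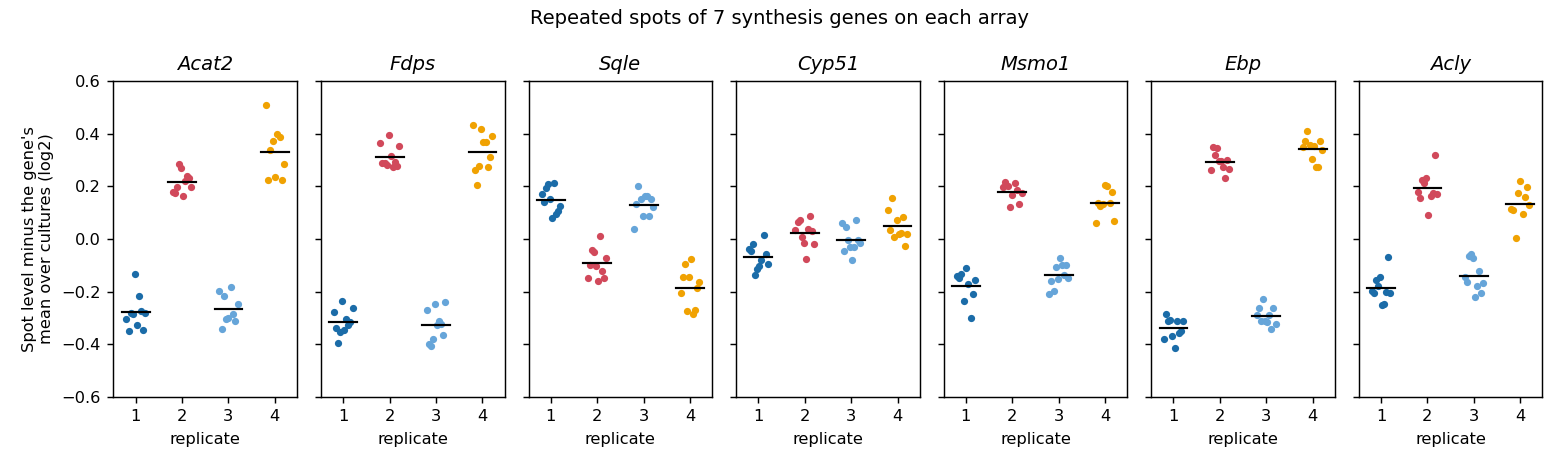
Level of each repeated spot minus the gene's mean over the 4 cultures (log2) for the 7 genes whose level probe has 10 spots, by replicate; points are spots kept after outlier removal (9 or 10 per array) and black bars their means. Replicates 2 and 4 lie above replicates 1 and 3 in Acat2, Fdps, Msmo1, Ebp and Acly and, under this scaling but not when arrays are scaled on all probes, below them in Sqle, and in Cyp51 the means of the arrays differ little under this scaling.

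Other probes of the same genes did not always repeat the order. The second Idi1 probe read -2.07, -2.38, -2.04 and -2.51, again higher in replicates 1 and 3. The second Hsd17b7 probe read -4.82, -4.42, -4.92 and -4.35, higher in replicates 2 and 4 and so opposite to the first. The second Insig1 probe read -1.02, -0.73, -1.06 and -0.66, higher in replicates 2 and 4, where the first was highest in replicates 2 and 3. Of the other Acat2 probes, the one at -2.27, -1.74, -2.31 and -1.78 and the one at -5.15, -4.98, -5.51 and -4.94 were highest in replicates 2 and 4, and the third, at -4.83, -4.51, -4.44 and -4.31, in replicates 3 and 4. The second Srebf1 probe read -2.45, -2.43, -2.89 and -2.63 and was highest in replicates 1 and 2. The other probes of Lss and Cyp51 had SDs of 0.0656 and 0.0518, under this scaling. That of Lss was highest in replicates 2 and 4, where its first was highest in replicates 1 and 4. That of Cyp51 was highest in replicates 3 and 4, where its first was highest in replicates 2 and 4. Under this scaling, Srebf1, Hsd17b7, Insig1, Lss and Cyp51 therefore have no pair of highest arrays that both of their probes share.

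Taken by branch, the median SD over cultures was 0.32 for the 18 sterol genes and 0.21 for the 6 control genes, against 0.23 over all eligible genes, and 12 of the 18 sterol genes lay above that. The fatty acid branch had Acly alone, with an SD of 0.19. The mean deviation of the sterol branch from its genes' own means was -0.0762, 0.0392, -0.0598 and 0.0968, with members that went both ways, and that of Acly was -0.19, 0.19, -0.14 and 0.13. The difference between the branches was 0.11, -0.15, 0.0798 and -0.0362, which compares 18 genes with 1 and changed sign on every array when the 3 further fatty acid genes of the laxer call were counted. The branches could therefore be compared for detection but hardly for their course over the cultures.

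The promoters of the members that stood out are shown because the branches are controlled there, with sequences from RefSeq (build GRCr8, 250 bases before to 50 after the gene start, 5′ to 3′). Of the 33 members, 26 had an entry, with 27 promoters. Capitals mark CCAAT or its reverse complement ATTGG, the letters of the NF-Y site, and CACNCCAC or its reverse complement GTGGNGTG, the core of the sterol regulatory element. Hmgcs1 and Idi1 were higher in replicates 1 and 3, Fdps and Ebp in replicates 2 and 4, Insig1 had the smallest SD of the control genes under this scaling, Acly was the fatty acid gene detected on every array, and Scd was detected on none.
Hmgcs1 (chr2:53382054-53382353, plus strand): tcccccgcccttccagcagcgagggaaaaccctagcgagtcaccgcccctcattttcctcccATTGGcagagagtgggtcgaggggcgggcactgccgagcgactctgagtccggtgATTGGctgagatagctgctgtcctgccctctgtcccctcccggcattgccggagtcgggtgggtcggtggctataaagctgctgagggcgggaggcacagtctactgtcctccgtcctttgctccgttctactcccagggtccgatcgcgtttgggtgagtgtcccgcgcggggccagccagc
Idi1 (chr17:66547475-66547774, minus strand): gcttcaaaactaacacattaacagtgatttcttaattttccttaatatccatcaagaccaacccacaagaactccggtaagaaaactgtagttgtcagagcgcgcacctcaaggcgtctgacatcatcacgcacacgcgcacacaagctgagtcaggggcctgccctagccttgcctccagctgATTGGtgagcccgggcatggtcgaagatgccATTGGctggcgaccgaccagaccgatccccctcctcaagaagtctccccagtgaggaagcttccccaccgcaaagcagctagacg
Fdps (chr2:176804767-176805066, minus strand): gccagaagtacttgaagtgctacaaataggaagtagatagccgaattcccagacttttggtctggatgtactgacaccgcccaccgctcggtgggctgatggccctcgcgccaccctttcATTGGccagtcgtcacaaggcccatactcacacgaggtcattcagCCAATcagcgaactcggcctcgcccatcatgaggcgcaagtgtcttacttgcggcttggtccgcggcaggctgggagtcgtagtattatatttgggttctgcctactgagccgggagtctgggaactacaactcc
Ebp (chrX:16971212-16971511, plus strand): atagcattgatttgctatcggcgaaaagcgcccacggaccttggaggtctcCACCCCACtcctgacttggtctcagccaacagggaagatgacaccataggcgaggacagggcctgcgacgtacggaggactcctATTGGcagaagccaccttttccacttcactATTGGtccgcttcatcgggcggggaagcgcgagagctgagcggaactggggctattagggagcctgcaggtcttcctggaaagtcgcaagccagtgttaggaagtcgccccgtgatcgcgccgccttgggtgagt
Insig1 (chr4:8057720-8058019, minus strand): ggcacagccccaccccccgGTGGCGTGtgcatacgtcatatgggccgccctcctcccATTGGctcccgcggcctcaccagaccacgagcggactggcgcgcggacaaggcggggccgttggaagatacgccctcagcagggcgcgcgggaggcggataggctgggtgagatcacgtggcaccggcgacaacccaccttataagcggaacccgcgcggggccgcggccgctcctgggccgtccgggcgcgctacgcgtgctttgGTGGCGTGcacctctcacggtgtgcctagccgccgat
Acly (chr10:85963582-85963881, minus strand): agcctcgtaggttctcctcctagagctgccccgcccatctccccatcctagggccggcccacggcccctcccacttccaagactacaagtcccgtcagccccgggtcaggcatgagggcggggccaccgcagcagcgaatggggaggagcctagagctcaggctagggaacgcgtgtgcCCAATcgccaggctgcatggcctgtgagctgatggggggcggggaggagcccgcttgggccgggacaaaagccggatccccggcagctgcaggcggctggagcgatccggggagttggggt
Scd (chr1:253231682-253231981, minus strand): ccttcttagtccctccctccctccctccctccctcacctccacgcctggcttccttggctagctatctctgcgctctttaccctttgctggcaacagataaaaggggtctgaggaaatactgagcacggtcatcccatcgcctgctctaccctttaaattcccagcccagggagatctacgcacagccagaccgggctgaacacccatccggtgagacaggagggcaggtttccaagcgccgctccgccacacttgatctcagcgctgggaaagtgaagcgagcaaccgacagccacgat

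Hmgcs1, Idi1, Fdps and Ebp each had 2 CCAAT matches in this window. Among the sterol branch members not printed, Acat2 and Dhcr7 had 0 and Hsd17b7 had 3. A relation between matches and the order over the cultures was not tested. On either strand, CCAAT was found in 12 of 15 sterol branch promoters (80.0%), in 5 of 6 of the control group and in 4 of 6 of the fatty acid branch, against 37.5% of all 33469 promoters and 38.8% of the 7026 promoters of eligible genes. It occurred 2 or more times in 10 of the 15 sterol branch promoters, against 11.2% of all promoters and 14.8% of those of eligible genes; Mvk and Nsdhl had 5 matches each. The core CACNCCAC was found in 5 of the 27 member promoters (Acat2, Ebp, Insig1, Elovl5 and Fads1), against 5.80% of all, and in Insig1 it occurred 2 times. The longer TCACNCCAC, which contains that core, was found in 0 of the 27 and in 1.12% of all promoters. Fads1, detected on no array, and Ebp, detected on all, both held the core, and Scd held neither motif. A match describes letters and does not show binding.

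Other genes of the pathway were taken from a separate list, with Nr1h3, Acss2, Me1, Hsd17b12, Tecr and Elovl1 named after their values were seen. Nus1, a subunit of the dolichol-making prenyltransferase, read -1.52, -3.05, -1.52 and -3.03, a 2.90-fold range, and Ggps1, geranylgeranyl diphosphate synthase, -2.53, -3.28, -2.81 and -3.70, a 2.25-fold range. Both were higher in replicates 1 and 3 under this scaling, as Hmgcs1 was. Of 11 measured control genes 9 were detected on all arrays, against 47.9% of all named genes. Mbtps2, the protease of the final SREBP cut, and Rnf145 were detected on 1 array each. Fbxw7, a ubiquitin ligase that marks nuclear SREBP, read -1.12, -2.32, -1.06 and -2.19, a 2.38-fold range. Nr1h3, the liver X receptor alpha gene, which drives lipogenesis, was detected at 1.67 ± 0.26.

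Among 18 further fatty acid genes, 11 were detected on all arrays and 7 on none, where 47.9% and 40.4% of all named genes were. Those on none were Acacb, the mitochondrial carboxylase, Thrsp, a lipogenic regulator, Hacd2, Elovl2, Elovl3, Elovl4 and Elovl7. Detected ones included Acss2, which makes acetyl-CoA from acetate, at -2.79 ± 0.41, and Me1, the malic enzyme that yields NADPH, at 1.27 ± 0.0609. Hsd17b12 and Tecr, genes of the elongation complex, were at 1.02 ± 0.092 and 0.66 ± 0.38, and Elovl1, an elongase of very long chains, was at 2.97 ± 0.13.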

How the data were processed

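Total RNA from 4 exposed cultures was labelled with Cy3 and hybridised to 1 Agilent rat array each. The deposited files hold the processed intensity of each spot, background-subtracted and not scaled between arrays, with the authors' Agilent Feature Extraction 11.0.1.1 per the file headers and the submitters' processing notes. Control spots and spots marked as outliers were left out. Spots of a probe were averaged, a probe was detected where over 50% of its spots were well above background, and log2 intensity minus each array's 75th percentile over probes detected on all arrays gave the level. Accessions were named through RefSeq (GRCr8): 21109 of 45598 probes had a gene and 24489 stayed unnamed. A gene took its brightest probe. The replicates form 1 group, so SDs and ranges are given and no test. Members and lists were chosen with earlier results of these data known. Some genes of the list of other pathway genes are not reported here. By rule all members were named, with values of each array for ranges above 2-fold, extreme SDs and disagreeing probes; values of the other members were added. Alternatives were scaling over all probes, the median, quantile normalization, normexp (offset 50, on the median spot signal) in limma 3.58.1 under R 4.3.3, the mean over probes, outlier spots kept, another detection call, other filters on dim genes, other branch scores and leaving out each replicate. Calculations used Python 3.11.15, numpy 2.4.6 and pandas 2.3.3, and were tested on simulated data.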

Additional observations from a re-analysis of the deposited data

How the results depend on the processing

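With all 4 arrays in 1 group, the values are limited by array number and, in the fatty acid branch, by signal over background. Signal over background also limits the value of Insig2 on replicate 4. No paired analysis was possible because there is 1 group. For each change below the cause was not tested. The count of members with a range above 2-fold, 3 here, was 9 of 25 with the percentile over all probes (18.5% of eligible genes), 5 of 25 with median scaling (13.0%), 5 of 25 after quantile normalization (13.4%), 5 of 28 with the positive-and-significant call (21.3%), 6 of 33 with no filter (26.5%), and 1 to 3 with a replicate left out, 1 without replicate 1. The fatty acid median SD, 0.19 from Acly alone, was 0.40, 0.31, 0.0854 and 0.39 under the first 4 of these, and 0.17 to 0.43 with a replicate left out, the highest without replicate 4, when 2 genes entered. Fatty acid genes detected on all arrays numbered 4 under the laxer call and 1 to 3 with a replicate left out. The SDs of single genes moved as well, by more than 1.5 times for 20 of 25 genes with the percentile over all probes, 12 with the median, 7 after quantile normalization, 3 with the laxer call, 3 with the mean over probes and 1 with normexp.

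Counts of members by their 2 highest arrays also moved. Over all probes they were 1 for replicates 1 and 2, 3 for 1 and 3, and 0 for 1 and 4. They were 0 for 2 and 3, 19 for 2 and 4, and 2 for 3 and 4, of 25 members. Median scaling gave 0 for 1 and 4 and 0 for 2 and 3, and quantile normalization gave 1 for 1 and 2 and 0 for 1 and 4. Normexp gave 1 for 1 and 2 and 1 for 3 and 4. The mean over probes gave 2 for 1 and 4, 0 for 2 and 3 and 1 for 3 and 4. The laxer call, with 28 members, gave 1 for 1 and 2 and 0 for 2 and 3. No filter, with 33 members, gave 1 for 1 and 2 and 5 for 3 and 4. Replicates 2 and 4 were the highest for 18 members with the median, 16 after quantile normalization and 14 with normexp. They were so for 16 with the mean over probes, 17 under the laxer call and 16 with no filter. The matching shares of all eligible genes were not computed for these settings. These counts were not run with a replicate left out, where the 2 highest of 3 arrays are another quantity.

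The sterol minus fatty acid deviation of replicates 1 to 4 was -0.0332, -0.0107, -0.0538 and 0.0977 after quantile normalization and -0.28, 0.0784, -0.33 and 0.53 under the laxer call. With no filter it was -0.00184, 0.14, -0.30 and 0.16, and with the median over branch members 0.0625, -0.11, -0.0120 and 0.0221. With another replicate left out it ranged from -0.12 to 0.14 in replicate 1, -0.13 to 0.33 in replicate 2, -0.21 to 0.12 in replicate 3 and -0.0871 to -0.00512 in replicate 4, and the 3 signs that turned did so without replicate 4.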
